A study of Mus musculus with 40 samples.

Results

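Ccl9, Csf1 and Cxcl12 encode secreted signals that act on macrophages and other blood cells, and they are described here across 14 groups of mouse cells and tissues. They were chosen by name: each is the only gene symbol of 1 spot on the array, so the 3 genes are 3 of 5760 spots, or 3 of the 3420 spots that carry exactly 1 gene symbol. The values are radioactive signals of labelled cDNA on nylon filters, 1 set of values per sample, 40 samples in all. Whether a filter was used for more than 1 sample is not stated. The series sets fat cell precursors beside macrophages, muscle, liver and embryonic stem cells.

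The primary groups were peritoneal macrophages (3 samples, washed from the peritoneal cavity and left with the cells that still adhered 24 h after plating), stroma-vascular cells (3, freed with collagenase from inguinal white fat, adherent cells 24 h after plating in the same kind of medium), inguinal adipocytes (3, from the same depot and by collagenase, washed and not plated), tibialis muscle (2) and liver (2). The cultured groups were the macrophage lines Raw 264 (3) and J774 (2), the preadipocyte lines 3T3-L1 (2), 3T3-F442A, Ob1774 and Hgfu (1 each), the mesenchymal line C3H-10T1/2 (3) and C2C12 myoblasts in proliferation (3), all grown below confluence. Differentiated cultures were 3T3-F442A adipocytes after 7 days with rosiglitazone (3) and C2C12 myotubes after 7 days in HS medium (2). ZIN40 embryonic stem (ES) cells were grown with LIF, the cytokine that keeps such cells undifferentiated (3), or without it and labelled as differentiated (3). No genotype, strain, sex or age is given for the animals, each line is a single established line, and the labels do not say whether the samples within a group are separate cultures or animals. The spread behind each p-value may therefore be only technical.

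Chemokines are small secreted proteins that direct the movement of white blood cells through receptors coupled to G proteins. Ccl9, also called MIP-1 gamma, is a CC chemokine of rodents, made by macrophages and osteoclasts, and acts through the receptor Ccr1. Cxcl12, also called SDF-1, is a CXC chemokine made by stromal cells of many organs, and holds blood stem cells in their niche through Cxcr4. Csf1 is not a chemokine: it is the growth factor that keeps macrophages alive and dividing through the receptor tyrosine kinase Csf1r, and is made by stromal and endothelial cells. In fat, resident macrophages sit among the stroma-vascular cells, outside the adipocytes.

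The 3 genes lie on different chromosomes, and the 250 bases before each gene's start (RefSeq, GRCm38.p6) are shown to set the starts of the 3 genes side by side. No link between these letters and the levels was tested. All read 5′ to 3′ on the gene's own strand and end at the base before the start. Capitals mark the motif named for each, on either strand: the TATA box TATAAA in Ccl9 and the GC box GGGCGG in the other two.
Ccl9: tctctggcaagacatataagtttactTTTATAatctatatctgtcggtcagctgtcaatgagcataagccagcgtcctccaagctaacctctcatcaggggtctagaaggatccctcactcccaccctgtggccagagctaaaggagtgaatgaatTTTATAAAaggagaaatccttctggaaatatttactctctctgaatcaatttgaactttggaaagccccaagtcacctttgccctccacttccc
Csf1: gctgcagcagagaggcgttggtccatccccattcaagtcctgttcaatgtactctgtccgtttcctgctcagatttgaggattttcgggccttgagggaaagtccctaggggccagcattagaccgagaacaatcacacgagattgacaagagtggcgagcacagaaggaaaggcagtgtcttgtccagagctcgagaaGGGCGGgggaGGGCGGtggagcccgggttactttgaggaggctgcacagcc
Cxcl12: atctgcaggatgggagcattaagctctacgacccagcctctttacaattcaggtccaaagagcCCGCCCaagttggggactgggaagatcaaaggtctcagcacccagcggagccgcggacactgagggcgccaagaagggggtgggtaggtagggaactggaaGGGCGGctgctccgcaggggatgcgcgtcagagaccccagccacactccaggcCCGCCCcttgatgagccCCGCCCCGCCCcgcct
The Ccl9 stretch lies at chr11:83578637-83578886 on the minus strand, has 43.6% G and C and 2 CpG dinucleotides, and holds TATAAA 3 times: on the gene's own strand beginning 92 bases before the start, on the opposite strand 94 bases before it, overlapping the former, and again on the opposite strand 224 bases before it. TATAAA was found in 12.4% of 32851 stretches of the same length before RefSeq genes. The Csf1 stretch, chr3:107760470-107760719 on the minus strand, has 56.4% G and C, 10 CpG and 2 separate GC boxes. The Cxcl12 stretch, chr6:117168285-117168534 on the plus strand, has 64.4% G and C, 14 CpG and 5 GC boxes, of which the pair nearest the start overlap. GGGCGG was found in 32.7% of all such stretches, whose median was 52.4% G and C and 6 CpG. The letters GAGGAA, a core bound by the myeloid factor PU.1, occurred in 23.3% of all stretches and in none of these 3 windows on either strand. These are matches of letters in a fixed window.

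Levels below are log2 of the quantile-normalized intensity plus an offset of 36370, and the median spot lies at 16.43 on that scale. No background subtraction is described for the deposited intensities, and the lowest value on 37 of the arrays is 7675. With such a floor and the offset, differences are compressed and a dim gene cannot fall far. The 3 arrays of ES cells without LIF hold intensities of another kind, with a 99th percentile of 60.0 to 391 times the array median against 3.87 to 17.5 times on the others, so their levels are given but not ranked. Array medians ran from 941, in ES cells without LIF, to 132228, and the lowest on the 37 other arrays was 18870.5. Samples of a group correlated at 0.817 to 0.968 over all spots. Measured markers of adipocytes, muscle, liver and macrophages had their highest mean in inguinal adipocytes, tibialis muscle, liver and peritoneal macrophages. Lymphocyte markers (3 of 11 measured) were also highest in inguinal adipocytes, at 16.83 to 16.95. Tibialis muscle had 16.80 to 16.82 in the adipocyte markers, above the stroma-vascular cells. Adipocyte markers averaged 16.97 to 17.44 in inguinal adipocytes and 16.58 to 16.70 in stroma-vascular cells, muscle markers 18.27 to 18.41 in tibialis muscle, and liver markers 17.44 to 18.98 in liver. None of the 11 ES cell markers listed is on the array, so the ES cell labels were not checked. The 5 macrophage markers measured of 18 (Cybb, Fcer1g, Itgb2, Mpeg1 and Vav1) averaged 17.39 to 17.68 in peritoneal macrophages, 16.90 to 17.38 in Raw 264, 16.73 to 16.76 in J774 and 16.56 to 16.62 in stroma-vascular cells. Preadipocyte lines had 16.32 to 16.42. Vav1, a signalling protein of blood cells, was at 16.34 in peritoneal macrophages and 16.27 in the preadipocyte lines.

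Ccl9 was highest in peritoneal macrophages, then in the macrophage lines, and lowest in ES cells. The 3 macrophage samples had levels of 19.81, 18.75 and 19.45, a mean of 19.33 ± 0.54 (SD, n = 3). On the linear scale of the deposited intensities the spot was 7.77 to 15.5 times its array's median. It was brighter than at least 95.5% of spots on each of these 3 arrays. Raw 264 had 19.25, 18.41 and 17.52, a spread as wide as 0.87 (SD), and J774 had 18.11 and 17.56. The lowest macrophage sample lay above every sample of 11 of the 12 other groups, and 1 Raw 264 sample reached into the macrophages' range.

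Stroma-vascular cells came next, with 17.66, 17.38 and 17.40 (mean 17.48 ± 0.16), where the Ccl9 spot was 2.29 to 3.66 times the array median. The 3T3-F442A adipocytes had nearly the same mean, 17.38 ± 0.29, from samples at 17.05, 17.58 and 17.51. Of the 4 preadipocyte lines, 3T3-F442A, from which these adipocytes came, was at 16.70, 3T3-L1 at 16.54 and Hgfu at 16.79, but Ob1774 was at 17.52. That 1 sample of Ob1774 stood in the range of the stroma-vascular cells. Inguinal adipocytes had 16.81, 16.73 and 16.64, and did not overlap with either the stroma-vascular cells or the 3T3-F442A adipocytes. In bulk samples such as these, fewer cells of a type and less RNA per cell cannot be told apart.

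In the remaining groups the means of Ccl9 lay between 16.27 and 16.64, except in liver, at 17.04. Liver had 17.21 and 16.86, tibialis muscle 16.55 and 16.51. C2C12 myotubes had 16.55 and 16.73, and myoblasts 16.71, 16.26 and 16.27. C3H-10T1/2 had 17.13, 16.42 and 16.20, with its first sample apart from the other two. ES cells with LIF were lowest at 16.25, 16.27 and 16.30, and those without LIF had 16.67, 16.40 and 16.48. In the order of the 13 ranked group means each neighbouring pair overlapped in its samples. From the top to the bottom of that order the means ranged over 3.06, larger than the range of 99.9% of all spots, whose median range was 0.41. A moderated F test over the 13 groups gave Ccl9 an adjusted p of 2.40e-08 (limma, Benjamini-Hochberg over all spots), and 10.9% of all spots passed that test.

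**Figure D1:**
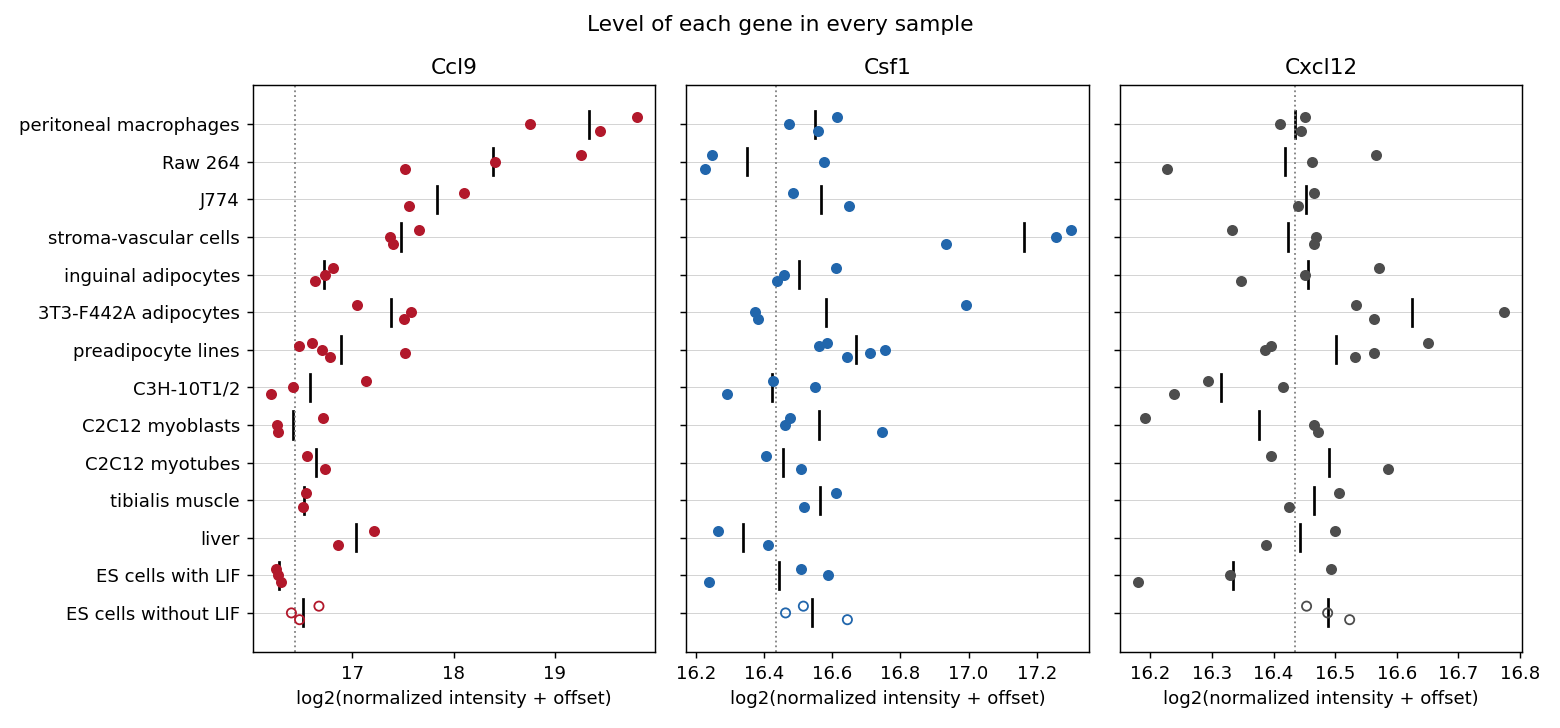
Level of Ccl9, Csf1 and Cxcl12 in each sample (points) and mean of each group (black bars), as log2 of normalized intensity plus offset, with the median of all spots as a dotted line and its own axis range for each gene. Open points are the ES cells without LIF, whose arrays hold values of another kind. Ccl9 is highest in peritoneal macrophages (18.75 to 19.81), Csf1 in stroma-vascular cells (16.93 to 17.30), and Cxcl12 stays between 16.18 and 16.77 in all groups shown.

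Ccl9 passed the test in 4 of 10 comparisons, and macrophages were on the higher side in each. Each difference is a log2 fold change ± SE estimated by limma, with its p-value adjusted over all 5760 spots, and comparisons that share a group are not independent. Peritoneal macrophages exceeded stroma-vascular cells by 1.85 ± 0.29 (adjusted p = 0.000273), a comparison in which 0.451% of all spots were called. No sample of these groups overlapped. How many of all spots show no overlap was not counted, here or in the comparisons below. With each array's 5th percentile subtracted first, the difference was 2.35 ± 0.61 and no longer called (adjusted p = 0.255), and 0 spots were called in this comparison in that setting. Against the preadipocyte lines, where 0.712% of spots were called, the difference was 2.45 ± 0.27 (adjusted p = 2.34e-07) and the samples again did not overlap.

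The macrophage lines lay between the primary macrophages and the connective tissue lines in Ccl9. Primary macrophages exceeded Raw 264 and J774 combined by 1.22 ± 0.26 (adjusted p = 0.00461), where 2.9% of spots were called. This call was lost without macrophage sample 1, the highest (0.98, adjusted p = 0.0641), with background subtraction (1.49, adjusted p = 0.204), and when only these groups entered the fit (1.22, adjusted p = 0.122). The lines in turn exceeded the mesenchymal and preadipocyte lines by 1.38 ± 0.21 (adjusted p = 0.000127), where 1.08% were called, although Ob1774 at 17.52 overlapped with the lowest Raw 264 sample. That last call held in each of the 7 other settings and with each of 13 samples left out, with values from 0.86 to 2.59.

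Within fat, Ccl9 was higher in stroma-vascular cells than in adipocytes of the same depot by 0.75 ± 0.29, which did not pass in the fit over all groups (adjusted p = 0.361; 0.625% of spots called). Sample numbers were taken to pair these groups because deviations of same-numbered samples correlated. Samples of different numbers were not compared, and the numbers alone do not show a shared animal, so the pairing is an assumption. Fitted without the other groups, with the number as a block, the same difference had an SE of 0.088 and passed (adjusted p = 0.00170). The spots called rose from 36 to 231. It also passed when only these groups entered the fit without the block (adjusted p = 0.00606). Each of the 3 stroma-vascular samples lay above each adipocyte sample, but the share of all spots that separate in this way was not counted. The macrophage markers differed little in the same comparison: their median difference was 0.06 against -0.02 over all spots, and none of the 5 was called. Endothelial markers (Cdh5 and Eng, 2 of 11 measured) were at 16.48 to 16.76 in stroma-vascular cells and 16.23 to 16.38 in adipocytes, with neither called. The part of these cell types in the Ccl9 difference was not tested.

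The difference in Ccl9 between 3T3-F442A adipocytes and the 4 preadipocyte lines did not pass the test. It was 0.49 ± 0.27 (adjusted p = 0.560), with 0.156% of spots called, and its 95% interval ran from -0.05 to 1.04. In the line 3T3-F442A itself, the 3 adipocyte samples (17.05 to 17.58) lay above the only sample of proliferating cells (16.70), a comparison with no replicate on one side. Inguinal adipocytes were lower than 3T3-F442A adipocytes by a difference of -0.65 ± 0.29 (adjusted p = 0.207), where 2.47% of spots were called, and the 3 samples of each group did not overlap. That difference passed when only these groups were fitted (adjusted p = 0.0368). Stroma-vascular cells against preadipocyte lines gave 0.59 ± 0.27 (adjusted p = 0.598; 0.191% called), C2C12 myotubes against myoblasts 0.23 ± 0.32 (adjusted p = 0.903; 0.226% called) and liver against tibialis muscle 0.51 ± 0.35 (adjusted p = 0.524; 1.88% called).

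**Figure D2:**
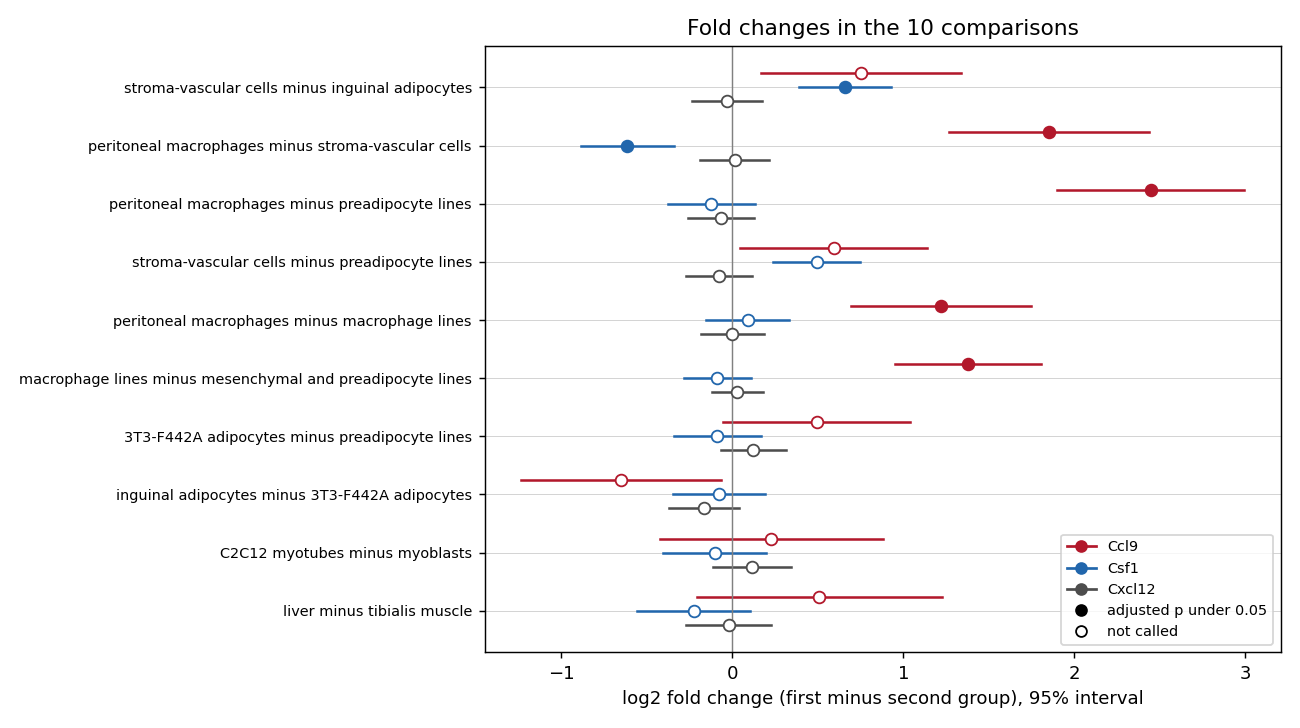
Log2 fold changes of the 3 genes in 10 comparisons (first group minus second), with 95% intervals from the limma fit; filled points passed at an adjusted p under 0.05 over all spots. Ccl9 passed in 4 comparisons, all with macrophages on the higher side, Csf1 in 2 that involve stroma-vascular cells, and Cxcl12 in none.

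Csf1 was highest in stroma-vascular cells of fat, and was not high in macrophages. The 3 stroma-vascular samples had 17.30, 17.26 and 16.93 (mean 17.16 ± 0.20, SD, n = 3), and the spot was 1.77 to 3.17 times the array median there. Inguinal adipocytes had 16.61, 16.46 and 16.44, close to the median spot. Peritoneal macrophages had 16.61, 16.47 and 16.56, and the macrophage lines were no higher: 16.25, 16.58 and 16.23 in Raw 264, and 16.49 and 16.65 in J774. The lowest stroma-vascular sample was above all samples of 11 of the 12 other groups. The exception was sample 1 of the 3T3-F442A adipocytes at 16.99, whose companions had 16.37 and 16.38.

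The preadipocyte lines came second in Csf1 with a mean of 16.67 ± 0.08 over 4 lines, and did not overlap with the stroma-vascular cells. Their members were close together: 16.57 in 3T3-L1, 16.76 in 3T3-F442A, 16.71 in Ob1774 and 16.64 in Hgfu. Below them the groups followed each other without gaps, and each of the other 11 neighbouring pairs overlapped. Tibialis muscle had 16.61 and 16.52, C2C12 myoblasts 16.47, 16.46 and 16.74, and myotubes 16.40 and 16.51. C3H-10T1/2 had 16.43, 16.55 and 16.29, and ES cells with LIF 16.51, 16.59 and 16.24. Liver was lowest at 16.27 and 16.41, and ES cells without LIF had 16.52, 16.46 and 16.64. The range of the means, 0.82, exceeded that of 90.5% of spots, and the F test over 13 groups gave an adjusted p of 0.00494. That call was lost with median scaling (adjusted p = 0.0689) and with background subtraction (adjusted p = 0.0584).

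Csf1 passed in 2 of the 10 comparisons, both of stroma-vascular cells. They exceeded adipocytes of the same depot by 0.66 ± 0.13 (adjusted p = 0.00690), where 0.625% of spots were called, with no overlap of samples. As for Ccl9, the adipocytes had not been plated, so fraction and plating cannot be told apart. Peritoneal macrophages were below the stroma-vascular cells, with a difference of -0.61 ± 0.13 (adjusted p = 0.0196), where 0.451% of spots were called, again with no overlap. The share of all spots without overlap was not counted in either comparison. Both calls rest on few arrays. The first was lost without stroma-vascular sample 1 or 2 or adipocyte sample 2 or 3 (0.59 to 0.64, adjusted p of 0.0688 to 0.0755) and with background subtraction, where the value rose to 1.61 (adjusted p = 0.167); under the block it held. The second was lost without stroma-vascular sample 1 or 2 or macrophage sample 2 or 3 (adjusted p of 0.0843 to 0.155), with median scaling (-0.67, adjusted p = 0.0923), with background subtraction (-1.45, adjusted p = 0.493) and with only these groups fitted (adjusted p = 0.0589).

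Against the preadipocyte lines the stroma-vascular cells were higher in Csf1 by 0.49 ± 0.12, which missed the threshold over all spots (adjusted p = 0.133). It passed once a running median along the table was removed from each array (0.53 ± 0.09, adjusted p = 0.00201). In the 7 other comparisons the Csf1 differences lay between -0.23 and 0.09, the lowest adjusted p was 0.547 and none was called. For macrophages against the macrophage lines the 95% interval was -0.15 to 0.33, and for 3T3-F442A adipocytes against the 4 preadipocyte lines -0.34 to 0.16. The mesenchymal markers Loxl1, Mmp2 and Timp2 (3 of 17 measured) averaged 16.67 to 17.15 in stroma-vascular cells and 16.41 to 16.56 in adipocytes, and none was called. The erythroid marker Hbb-b1 had 16.85 to 17.42 and 16.71 to 17.06, which overlap, and was not called. Their part in the Csf1 result, and that of the endothelial markers above, was not tested.

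**Figure D3:**
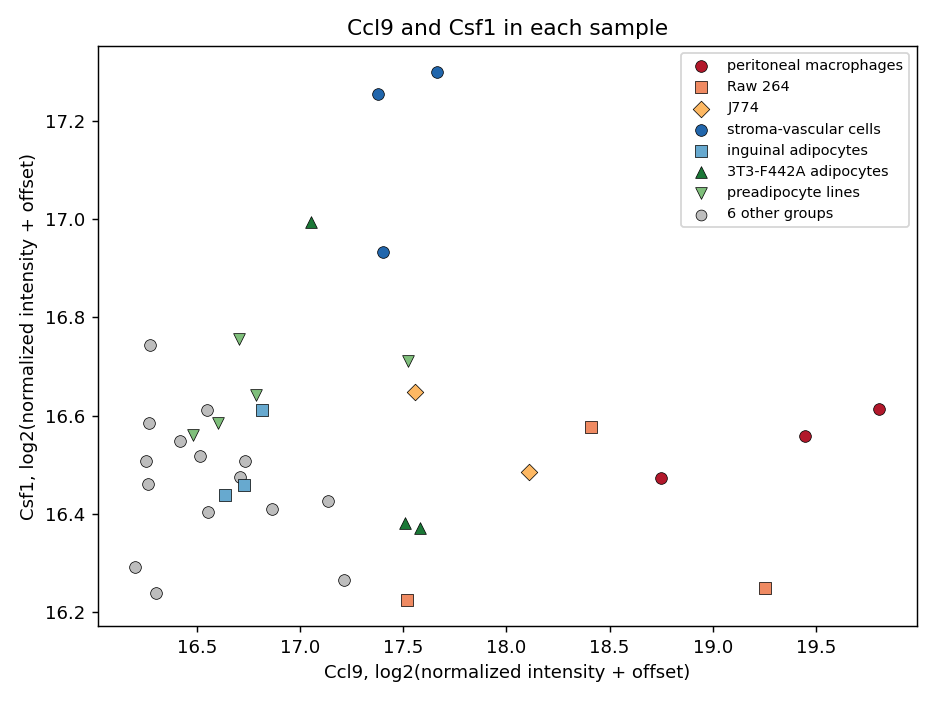
Level of Ccl9 (horizontal) against Csf1 (vertical) in the 37 samples other than ES cells without LIF, both as log2 of normalized intensity plus offset, 1 point per sample. Peritoneal macrophages lie at the right with Csf1 of 16.47 to 16.61, stroma-vascular cells at the top with Ccl9 of 17.38 to 17.66, and 1 sample of 3T3-F442A adipocytes lies beside the latter at 16.99 in Csf1.

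Cxcl12 passed no test of differences among the groups. Its group means ran from 16.32 in C3H-10T1/2 to 16.62 in 3T3-F442A adipocytes, a range of 0.31 that was larger than only 22.1% of spots had. The 3T3-F442A adipocytes had 16.53, 16.77 and 16.56, and the preadipocyte lines a mean of 16.50 ± 0.08 over 4 lines. Stroma-vascular cells, a stromal population, had 16.33, 16.47 and 16.47, and inguinal adipocytes 16.57, 16.45 and 16.35. Peritoneal macrophages had 16.45, 16.41 and 16.44. The lowest 3T3-F442A adipocyte sample lay above every sample of 8 of the 12 other ranked groups, among them the stroma-vascular cells and peritoneal macrophages. As for Ccl9 and Csf1 above, this group was picked as the highest of the same means. How often the highest group of other spots stands apart in this way was not counted. Preadipocyte lines, stroma-vascular cells, inguinal adipocytes and peritoneal macrophages overlapped with each other in their samples. So did each of the 12 neighbouring pairs of the whole order.

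The remaining groups lay in the same range of Cxcl12 levels. Raw 264 had 16.57, 16.46 and 16.23, J774 16.46 and 16.44, and C3H-10T1/2 16.29, 16.42 and 16.24. C2C12 myotubes had 16.40 and 16.59, myoblasts 16.19, 16.47 and 16.47, tibialis muscle 16.51 and 16.42, and liver 16.50 and 16.39. ES cells had 16.49, 16.33 and 16.18 with LIF and 16.45, 16.49 and 16.52 without it. These values lie around the median spot of 16.43, where signal could not be told from filter background in the deposited values. The F test over 13 groups gave an adjusted p of 0.519. None of the 10 comparisons was called by limma, 0 had an unadjusted p under 0.05, and the lowest adjusted p was 0.378. The differences lay between -0.17 and 0.12, and the 95% intervals reached no further than -0.37 and 0.34. On this compressed scale larger differences lie outside all 10 intervals, which holds for this scale only. With background subtraction, inguinal minus 3T3-F442A adipocytes was -0.57 (limma adjusted p = 0.524) and C2C12 myotubes minus myoblasts 0.57 (adjusted p = 0.798). Across the settings tried, the range over 13 groups reached 1.22 and was called in none. What each comparison could detect varied with its SE, which ran from 0.073 to 0.123.

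Few other genes of the same signalling system are on the array. Of 47 chemokine and colony-stimulating factor ligands listed, 6 were measured: the 3 described above, Cxcl14, Ccl22 and Cx3cl1. None of the latter was called in any of the 10 comparisons. Cxcl14, a chemokine of epithelia and stroma, was highest in stroma-vascular cells (17.62) and lowest in J774 (16.74), with an adjusted p of 0.112 over 13 groups. It was higher in peritoneal macrophages than in the macrophage lines by 0.68 ± 0.20, just short of the threshold (adjusted p = 0.0531). Ccl22, which attracts regulatory T cells, ran from 16.19 in tibialis muscle to 16.54 in Raw 264. Cx3cl1, the membrane-bound ligand of monocytes, ran from 16.13 in tibialis muscle to 16.47 in liver. Over the 6 ligands the median difference between stroma-vascular cells and adipocytes was 0.20 against -0.02 over all spots, and between macrophages and stroma-vascular cells 0.04 against 0.00.

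Of 32 receptors listed, 2 were measured, and the receptors of the 3 genes (Ccr1, Csf1r and Cxcr4) were not among them. Ccr7, the receptor that guides dendritic and T cells to lymph nodes, was between 16.18 in C2C12 myoblasts and 16.60 in J774. Ackr4, a scavenging receptor that does not signal through G proteins, had a bright spot in all groups, with means from 19.30 to 19.74. Neither was called in any comparison. Of 50 genes that act below these receptors 9 were measured, and 3 were called in at least 1 of the 10 comparisons, beside 7.85% of all spots. All 3 were called in peritoneal macrophages against the macrophage lines, where 2.9% of spots were. Arrb2, the arrestin that ends receptor signalling, was lower in peritoneal macrophages than in the macrophage lines (-0.51 ± 0.12, adjusted p = 0.0168), and higher in those lines than in the mesenchymal and preadipocyte lines (0.71 ± 0.10). Src, a membrane tyrosine kinase, was higher in peritoneal macrophages than in the macrophage lines (0.78 ± 0.17, adjusted p = 0.00729) and in inguinal than in 3T3-F442A adipocytes (0.75 ± 0.19, adjusted p = 0.0253). Pik3cg, the lipid kinase of chemokine receptors, was higher in peritoneal macrophages than in the lines (0.63 ± 0.16, adjusted p = 0.0191) at 1 of its 2 spots.

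Of the 5 genes whose group means followed Ccl9 most closely, 3 are on the list of macrophage markers. Likeness was the Pearson correlation over 13 group means, among 987 named spots whose means range over at least 0.5, and the points share their arrays. The 5 most like Ccl9 were Cybb, the catalytic subunit of the phagocyte oxidase (0.906), Itgb2, the beta chain of leukocyte integrins (0.899), Igsf8, a membrane protein bound to tetraspanins (0.888), Mpeg1, a pore-forming protein of macrophages (0.876), and Ms4a6d, a membrane protein of myeloid cells (0.873). All 5 had their highest mean in peritoneal macrophages, where Ccl9 peaks, which the choice by correlation favours. Cybb was at 18.52 there and at 16.31 in its lowest group, a range of 2.21 beside the 3.06 of Ccl9. In macrophages against stroma-vascular cells, Cybb differed by 1.91 ± 0.28 (adjusted p = 0.000153), Mpeg1 by 1.07 ± 0.15 and Itgb2 by 0.99 ± 0.18. Of the 5 macrophage markers, 4 were called in that comparison, with a median of 0.99 over all 5. In the macrophage lines against the mesenchymal and preadipocyte lines, where Ccl9 was called, 1 of the 5 markers was called: Fcer1g, a signalling chain of antibody receptors, at 1.13 ± 0.14.

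The 5 genes most like Csf1 by Pearson correlation were Gbp2, an interferon-induced GTPase (0.797), Thbd, the thrombomodulin of endothelium (0.795), Ogfr, an opioid growth factor receptor (0.755), Mmrn2, a matrix protein of endothelium (0.735), and Tdrd7, a protein of RNA granules (0.733). Gbp2 passed the F test over 13 groups (adjusted p = 4.22e-06). The other 4 did not (adjusted p from 0.0736 to 0.191). All 5 had their highest mean in stroma-vascular cells, where Csf1 peaks, which the choice by correlation again favours. Ranked by Spearman's rho in place of Pearson's r, 0 of these 5 were among the 5 nearest to Csf1, and 2 of 5 (Igsf8 and Mpeg1) were among those nearest to Ccl9. For Cxcl12, whose own means hardly vary, the nearest were the splicing factor gene Hnrnph1 (0.706), the basement membrane collagen Col4a1 (0.689), the RNA-binding protein gene Zfp36l1 (0.671), Calu (0.636) and Tsc22d3 (0.634), with 0 shared under Spearman's rho.

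**Figure D4:**
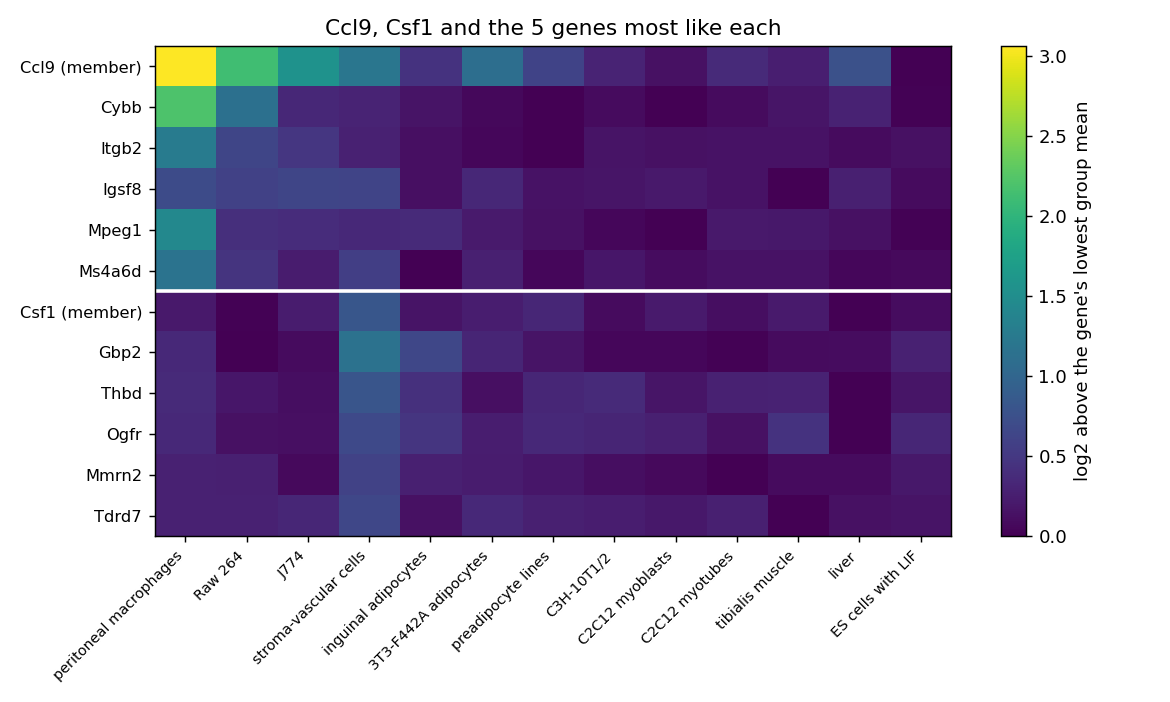
Group means of Ccl9 and Csf1 and of the 5 genes most like each, as log2 above that gene's lowest group mean (colour scale), in 13 groups; the white line separates both sets. The Ccl9 set is brightest in peritoneal macrophages, where Ccl9 stands 3.06 above its lowest group and Cybb 2.21, and the Csf1 set in stroma-vascular cells, where Gbp2 stands 1.15 above its lowest group.

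The rows next to the 3 genes in the deposited table were examined as well; positions on the filter were not used here. Of the rows next to Ccl9, Lasp1 was not called in macrophages against stroma-vascular cells (0.15), while Zfp575 was (0.47, adjusted p = 0.0407), its only call in 10 comparisons. The rows next to Csf1 were not called in either comparison in which Csf1 was. Kcnh2, next to Cxcl12, was higher in stroma-vascular cells than in adipocytes (1.06, adjusted p = 0.00104), where Cxcl12 differed by -0.03. The part of neighbouring spots in these values was not tested.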

How the data were processed

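The deposited values are linear spot intensities of 5760 spots in 40 samples. Per the labels' protocols, total RNA (Tripure, DNase-treated) was turned into cDNA labelled with 33P and hybridized to Resgen filters, which were read with Imagene. For background correction and scaling the sources used here give nothing. Platform annotation pairs 3420 spots with 1 gene symbol, of which 3346 matched a current RefSeq symbol. Groups follow sample titles; the C2C12 samples in proliferation, whose source name says preadipocyte, were taken as myoblasts by title.

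Arrays were quantile normalized and log2 taken of the value plus 36370, which is the 10th percentile of all normalized intensities. limma 3.58.1 in R 4.3.3 fitted 14 groups at once (39 units, since both 3T3-L1 samples were averaged; 25 residual degrees of freedom), two-sided, with Benjamini-Hochberg adjustment over all spots and calls at an adjusted p under 0.05. The number of arrays per group limits the precision. The script was tested on simulated data. Where a gene of a list has several spots, the brightest stands for it in counts and medians.

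Deviations of same-numbered samples correlated at 0.259, 0.102 and 0.386 between stroma-vascular cells and inguinal adipocytes. Those numbers, from the titles, were therefore taken to pair samples, but in the other comparisons they were not. Between inguinal adipocytes and the cultured 3T3-F442A adipocytes, which share no animal, the values were 0.138, -0.056 and -0.101. Samples of different numbers were not compared, so these correlations do not establish the pairing.

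Named genes are the 3 genes, measured ligands and receptors, called signalling genes, and the 5 genes most like each by Pearson correlation; markers are named beside their list. The neighbours in the table were added to this rule. The genes and lists were chosen with earlier results of these data known. Alternatives were median scaling, background subtraction, 4 times the offset, removal of a local trend, bright spots only, leaving out the arrays of ES cells without LIF, only the compared groups, a replicate block, and leaving out each sample. No filter is named, so no block for it was run. Figures: matplotlib 3.10.9, Python 3.11.15.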

Additional observations from a re-analysis of the deposited data

Results flagged for a closer look

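Ccr7 in the preadipocyte lines had 1 line far from the other 3: the gap between Ob1774, the lowest at 15.96, and its nearest neighbour, 3T3-L1 at 16.34, was 0.843 of the whole range of the 4 lines, which reached up to 16.41. Chance gives such a gap for about 1 in 20 genes, and 8 chemokine, colony-stimulating factor and receptor genes were looked at in these 4 lines. The same share was 0.776 for Ackr4, 0.770 for Cxcl12 and 0.750 for Ccl9, below the critical value. Ob1774 is represented by 1 sample, and was also the highest of the 4 lines in Ccl9 at 17.52. No comparison of Ccr7 was called.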

How the results depend on the processing

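No called difference of Ccl9 or Csf1 changed direction in any setting tried. Ccl9 kept its call over 13 groups, in macrophages against preadipocyte lines and in macrophage lines against mesenchymal and preadipocyte lines in each setting tried. With median scaling, the Csf1 range over 13 groups was 0.84 (adjusted p = 0.0689) and macrophages minus stroma-vascular cells -0.67 (0.0923), both no longer called. With background subtraction, the calls lost were Ccl9 in macrophages minus stroma-vascular cells (2.35) and minus macrophage lines (1.49), and Csf1 over 13 groups (2.38), in stroma-vascular cells minus adipocytes (1.61) and in macrophages minus stroma-vascular cells (-1.45). Removal of a local trend added Csf1 in stroma-vascular cells minus preadipocyte lines (0.53). With only the compared groups, which leaves fewer samples to estimate the spread, Ccl9 gained calls in stroma-vascular cells minus adipocytes (0.75) and adipocytes minus 3T3-F442A adipocytes (-0.65), and calls were lost for Ccl9 in macrophages minus macrophage lines (1.22) and Csf1 in macrophages minus stroma-vascular cells (-0.61). With the replicate block the same held for the comparisons it could be run on: 0.75 and -0.65 for Ccl9 were called and -0.61 for Csf1 was not (adjusted p = 0.110); the block changed no other call. Of these comparisons, the numbers were taken to pair samples only for stroma-vascular cells and adipocytes. With each sample left out in turn, Csf1 ran from 0.59 to 0.77 in stroma-vascular cells minus adipocytes and from -0.73 to -0.55 in macrophages minus stroma-vascular cells, each called in 2 of 6 fits, and Ccl9 in macrophages minus macrophage lines from 0.98 to 1.51, called in 7 of 8. The cause of these changes was not tested. Of the uncalled differences, 2 of 7 for Csf1 and 5 of 10 for Cxcl12 turned sign in some fit, and none was called in 104 and 147 fits. Counts of called spots moved far more: 0 to 35 in macrophages minus stroma-vascular cells, 14 to 231 in stroma-vascular cells minus adipocytes, 18 to 77 in macrophages minus preadipocyte lines, 3 to 27 in stroma-vascular cells minus preadipocyte lines, 20 to 217 in macrophages minus macrophage lines, and 14 to 122 in macrophage lines minus mesenchymal and preadipocyte lines. They ran from 2 to 32 in 3T3-F442A adipocytes minus preadipocyte lines, 34 to 301 in adipocytes minus 3T3-F442A adipocytes, 2 to 153 in C2C12, and 2 to 199 in liver minus muscle. Signal and filter background are not given apart in the deposited values, which limits what can be said of dim spots such as Cxcl12.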
